A study of Drosophila melanogaster with 12 samples.

Results

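The regions described here are the promoter regions of the X chromosome in Kc167 cells, a female *Drosophila melanogaster* line of embryonic hemocyte origin. They were taken from chromatin immunoprecipitation followed by sequencing (ChIP-seq) with an antibody against RNA Polymerase II phosphorylated on serine 2 (Pol II S2). The called regions of 6 libraries were merged, with touching regions joined, and a merged region was kept when it was narrower than 5000 bp and touched the 1500 bp on either side of an annotated transcription start site (TSS). This gave 964 regions on the X out of 8418 merged regions in all. The same rule gave 3177 regions on the 2L, 3L and 3R arms combined (965, 1036 and 1176), which served for comparison. Regions on the remaining chromosomes entered only the counts over all merged regions and the marker check.

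The labels give 2 replicate libraries for each of 3 groups, collected 3 days after transfection. Mock-treated cells received neither dsRNA nor siRNA, the AGO2 knockdown carries the label siAGO2 (AGO2 KD), and the LaminB knockdown carries the label dsLaminB (LaminB KD), so reagent and target changed together. The question behind the series was whether loss of AGO2 changes Pol II occupancy, and LaminB, a protein of the nuclear lamina, served as the control for specificity. No label says that replicates came from separate cultures, so a p-value measures only the spread between these libraries, which may be technical.

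Pol II starts transcription with an unphosphorylated C-terminal domain. Kinases then phosphorylate serine 5 near the start of the gene and serine 2 as the polymerase moves into the gene body, so S2-phosphorylated Pol II marks elongation and increases toward gene ends. In *Drosophila* males the MSL complex, which contains the acetyltransferase MOF and the roX RNAs, raises transcription of the single X, whereas in females the RNA-binding protein Sxl prevents its assembly. Kc167 cells are labelled female, the sex in which that complex does not assemble.

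The sequences below come from X promoters chosen by rule or by motif, and from the middle of X regions whose calling differed between groups. Each has 100 bases of the Release 6 (dm6) reference sequence, written 5′ to 3′. The first set holds the promoters of the 3 wide regions whose called length varied least between libraries, *Ran*, *RpS6* and *e(r)*. It shows 75 bases before the nearest TSS, the TSS at position 76 and the 24 bases after it, on the strand of the gene (minus for all 3). Capitals mark a DNA replication-related element (DRE, TATCGATA), an E-box-like element (CAGCTG), a GA repeat (GAGAGA) or a CA repeat (CACACACA) on either strand. The coordinates are chrX:11146572-11146671 for *Ran*, chrX:7901307-7901406 for *RpS6* and chrX:8905966-8906065 for *e(r)*.
Ran: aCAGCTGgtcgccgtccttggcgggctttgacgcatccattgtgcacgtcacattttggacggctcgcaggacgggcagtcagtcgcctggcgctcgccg
RpS6: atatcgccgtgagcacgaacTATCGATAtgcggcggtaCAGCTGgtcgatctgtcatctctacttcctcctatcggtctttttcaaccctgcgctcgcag
e(r): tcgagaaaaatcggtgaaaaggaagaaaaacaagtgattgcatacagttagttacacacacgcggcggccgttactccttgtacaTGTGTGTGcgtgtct

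The second set holds promoters of regions called in all 6 lists that carry a DRE in the same window. The 3 with the highest mean fold enrichment in mock are shown, of 59 that had one. The element is the binding site of DREF, a factor of housekeeping and growth genes. The coordinates are chrX:19675867-19675966 (minus strand) for *et*, chrX:6756247-6756346 (plus strand) for *sov* and chrX:15139343-15139442 (minus strand) for *RpL37-1*.
et: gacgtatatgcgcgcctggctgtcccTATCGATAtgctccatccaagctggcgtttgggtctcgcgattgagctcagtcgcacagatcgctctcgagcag
sov: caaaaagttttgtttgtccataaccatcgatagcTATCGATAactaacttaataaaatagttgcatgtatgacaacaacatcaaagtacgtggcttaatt
RpL37-1: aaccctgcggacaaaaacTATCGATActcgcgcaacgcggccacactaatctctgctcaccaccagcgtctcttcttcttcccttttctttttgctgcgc

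The third set was chosen in the same way for the CA repeat, read as CACACACA on one strand or TGTGTGTG on the other, from the 14 regions that had one. All 3 genes lie on the plus strand, at chrX:13396824-13396923 for *Bcat*, chrX:17130348-17130447 for *CG5004* and chrX:11389994-11390093 for *dlg1*.
Bcat: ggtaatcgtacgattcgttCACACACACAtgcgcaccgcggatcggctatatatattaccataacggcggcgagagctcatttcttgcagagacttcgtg
CG5004: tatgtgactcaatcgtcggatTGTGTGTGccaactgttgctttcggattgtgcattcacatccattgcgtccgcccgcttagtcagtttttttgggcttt
dlg1: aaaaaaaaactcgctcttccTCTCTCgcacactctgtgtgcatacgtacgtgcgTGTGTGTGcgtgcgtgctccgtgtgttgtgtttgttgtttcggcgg

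The fourth set shows the middle 100 bases of regions that were called in one group and not in another, on the plus strand, since these lie at some distance from their TSS or within an antisense transcript. The regions of *asRNA:CR44961* (chrX:15317235-15317334), *CR17438* (chrX:9259475-9259574) and *asRNA:CR44053* (chrX:16809080-16809179) were called in both mock libraries and in neither AGO2 KD library. Those of *asRNA:CR45000* (chrX:15927835-15927934) and *pkm* (chrX:11583411-11583510) were called in both LaminB KD libraries and in neither mock library.
asRNA:CR44961: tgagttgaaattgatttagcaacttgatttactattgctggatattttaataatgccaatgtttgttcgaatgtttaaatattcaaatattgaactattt
CR17438: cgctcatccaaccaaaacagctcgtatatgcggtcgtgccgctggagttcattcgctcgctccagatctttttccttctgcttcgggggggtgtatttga
asRNA:CR44053: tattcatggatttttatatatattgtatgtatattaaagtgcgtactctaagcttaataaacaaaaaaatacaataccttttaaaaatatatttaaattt
asRNA:CR45000: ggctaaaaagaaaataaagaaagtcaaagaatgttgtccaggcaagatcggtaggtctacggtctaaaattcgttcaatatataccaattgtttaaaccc
pkm: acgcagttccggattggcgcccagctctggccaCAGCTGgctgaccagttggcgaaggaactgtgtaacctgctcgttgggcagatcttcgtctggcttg

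The GC content of these windows ran from 17% at *asRNA:CR44053* to 65% at *Ran*. The windows of *Ran* and *RpS6* share an E-box-like element, and *RpS6* also carries a DRE, as *RpL37-1* does. None of the 3 windows from regions absent in AGO2 KD held any of the marked motifs. These windows were taken from the middle of the regions and not from a TSS, so they cannot be set against the promoter windows.

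The X carried 1547 merged regions, of which 1078 touched a promoter window and 469 did not. Of the 1078, 114 were 5000 bp or wider and were left out by the rule. The widest members measured 4980, 4981 and 4997 bp, and the narrowest regions just beyond the limit measured 5021, 5051 and 5055 bp. Members occurred at 40.9 per Mb on the X, beside 41.0 on 2L, 36.9 on 3L and 36.7 on 3R. They touched the promoter windows of 1087 of 2196 protein-coding genes of the X (49.5%), beside 43.5% of genes on 2L, 46.5% on 3L and 44.7% on 3R. The X thus had a share of genes with a promoter region above that of each autosomal arm, whereas its density per Mb lay between those of the arms.

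Most of the X regions, all kept for lying near a start site, lay directly over it. A TSS was inside 707 of 964 regions (73.3%), beside 72.2% on the autosomes. The nearest TSS belonged to a protein-coding gene in 892 regions, to an ncRNA gene in 59, to a pseudogene in 8, to a snoRNA gene in 4 and to a tRNA gene in 1. Promoter windows of 2 or more genes were touched by 455 X regions (47.2%), beside 53.3% on the autosomes, and start sites on both strands by 371 X regions (38.5%), beside 42.3%. The median merged width was 1130 bp on the X, with quartiles of 457.75 and 2405 bp, and 985, 1094.5 and 1161 bp on 2L, 3L and 3R. The X median lay inside the range of the arms, and its log2 ratio to the autosomes together (1073 bp) was 0.07.

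Each library was then asked how many of the X regions it had called. Presence, the percentage of the 964 regions with at least 1 called base, was 89.6% in mock 1, 92.7% in mock 2, 46.9% in AGO2 KD 1, 72.7% in AGO2 KD 2, 83.2% in LaminB KD 1 and 83.5% in LaminB KD 2. On the autosomes together it was 91.7, 91.1, 47.4, 70.2, 81.0 and 81.1% in the same order. The X followed the autosomes closely from library to library, and both knockdowns lay below mock on both. The AGO2 KD libraries stood far apart from each other on the X, by more than the other groups did.

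**Figure D1:**
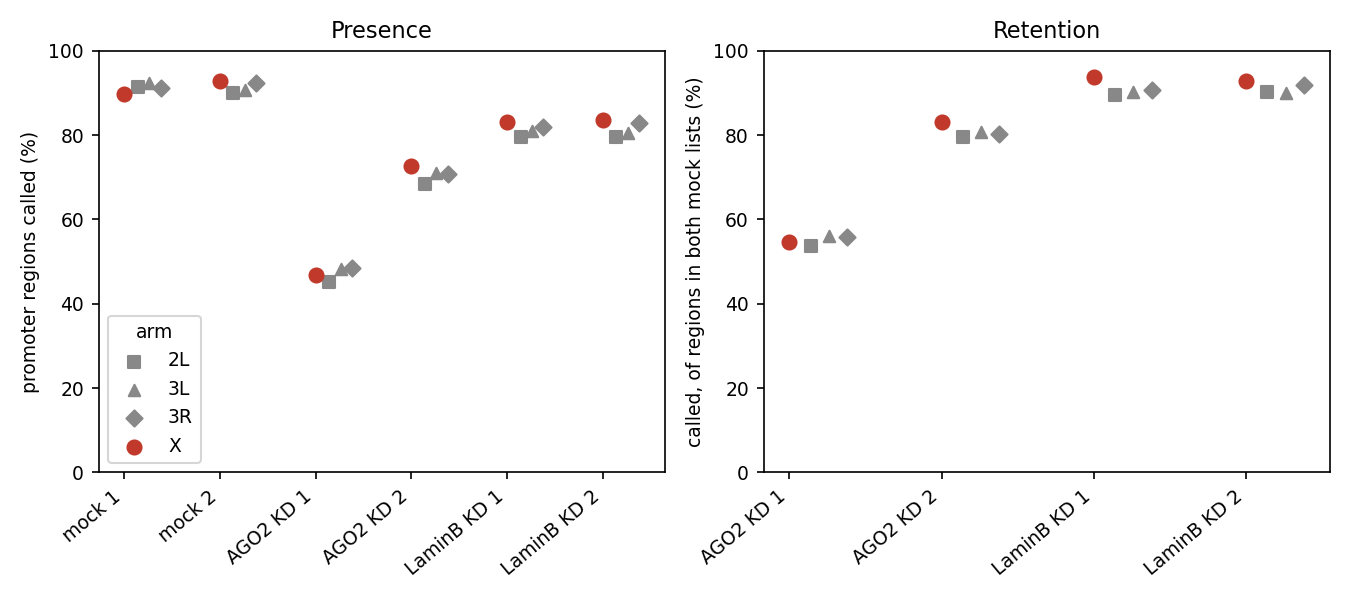
Percentage of promoter regions called in each library (left) and, in the knockdown libraries, of regions called in both mock lists (right), for the X (red circles) and for 2L, 3L and 3R (grey squares, triangles and diamonds, set to the right of each X point). The X lies at 46.9% in AGO2 KD 1 and 72.7% in AGO2 KD 2, between 83.2 and 83.5% in LaminB KD and between 89.6 and 92.7% in mock, within a few points of the 3 arms throughout.

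For the X, mean presence was 91.2 ± 2.20% for mock, 59.8 ± 18.3% for AGO2 KD and 83.4 ± 0.220% for LaminB KD (SD, 2 libraries each). AGO2 KD differed from mock by −31.4 percentage points (pooled SD 13.0) and from LaminB KD by −23.5 (pooled SD 12.9), and LaminB KD differed from mock by −7.83 (pooled SD 1.56). The groups did not overlap in any of the 3 comparisons (two-sided exact permutation p = 0.333, which is the lower bound for 2 against 2 libraries). AGO2 KD minus mock was −18.5 percentage points without AGO2 KD 1 and −44.3 without AGO2 KD 2, so its size rested on single libraries. AGO2 KD minus LaminB KD was −10.6 without AGO2 KD 1 and −36.5 without AGO2 KD 2. With each list limited to its 4122 most significant regions, AGO2 KD minus mock was −11.1 and AGO2 KD minus LaminB KD −10.1, and LaminB KD minus mock was −1.03, with the groups overlapping (exact permutation p = 1).

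The lists hold no read counts, so depth is unknown, and a region reaches the threshold of the caller more easily in a deeper library. The significance given to X regions of equal fold enrichment differed between groups in the order that presence did. For X regions with a fold of 3 to 3.5, the median −log10 p was 14.5 in both mock libraries, 4.18 in AGO2 KD 1, 6.89 in AGO2 KD 2, 10.2 in LaminB KD 1 and 11.5 in LaminB KD 2. The part of this difference in the lower presence upon depletion was not tested.

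The difference between the X and the autosomes was far smaller than that between groups. X minus autosomes was −2.06, 1.61, −0.48, 2.56, 2.24 and 2.36 percentage points in mock 1, mock 2, AGO2 KD 1, AGO2 KD 2, LaminB KD 1 and LaminB KD 2, positive in 4 of 6 libraries. The X lay above every arm in mock 2, AGO2 KD 2 and both LaminB KD libraries, below every arm in mock 1 and within the arms in AGO2 KD 1. The mean difference of 1.04 ± 1.89 percentage points (SD, n = 6) was smaller than its spread (exact sign-flip permutation test, two-sided p = 0.25, smallest possible 0.0312). The direction depended on how presence was counted. When each list was limited to the same number of regions (its 4122 most significant), the mean was −2.46 percentage points, negative in all 6 libraries (exact sign-flip permutation test, two-sided p = 0.0312), and with at least 50% of a region called it was −0.65.

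Whether this difference itself changed between groups was asked next. X minus autosomes in presence was higher in AGO2 KD than in mock by 1.26 points (pooled SD 2.39; exact permutation test, two-sided p = 0.667) and higher in LaminB KD than in mock by 2.52 (pooled SD 1.84; exact permutation test, two-sided p = 0.333). AGO2 KD minus LaminB KD was −1.26 (pooled SD 1.52; exact permutation test, two-sided p = 1). The change upon AGO2 depletion turned negative without mock 1 (−0.58) and without AGO2 KD 2 (−0.26). The change upon LaminB depletion was 0.68 without mock 1 and 4.36 without mock 2.

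Lost and gained regions were counted next, a lost region being one called in both libraries of the reference group and in neither of the other. On the X, 135 of 964 regions (14.0%) were lost in AGO2 KD, beside 16.8% of the autosomal promoter regions and 19% of all 8418 merged regions. None of the X regions was gained, beside 0.0238% of all merged regions. The share lost on the X was thus below the background of the series and below that of 2L (17.0%), 3L (16.5%) and 3R (17.0%). The lost count was 373 without AGO2 KD 2, and 9 regions were gained without AGO2 KD 1. Leaving a library out loosens the rule, so such counts cannot fall, and they were made for the X alone.

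In LaminB KD, 30 X regions (3.11%) were lost, beside 4.97% of the autosomal promoter regions and 6.55% of all merged regions. Gained regions numbered 6 (0.62%), beside 0.409% of the autosomal promoter regions and 0.523% of all. The number lost was 52 to 75 and the number gained 8 to 15 with single libraries left out, under the same looser rule. Between LaminB KD and AGO2 KD, 85 X regions (8.82%) were lost in AGO2 KD, beside 8.93% of all merged regions, and 1 was gained, beside 0.0475%. The 85 became 306 without AGO2 KD 2, again under the looser rule. The gained region lay at *CG14196* (chrX:19241515-19242001, over its TSS) and is named because it was the only one. It had 217 and 0 called bases in mock, 202 and 487 in AGO2 KD and 0 in both LaminB KD libraries.

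The lost regions were narrower than the regions at large, on the X and on the autosomes. On the autosomes the median merged width was 732 bp among those lost in AGO2 KD and 540.5 bp among those lost in LaminB KD. It was 1322 bp among autosomal regions called in both mock libraries. On the X it was 641 bp among the 135 regions lost in AGO2 KD and 364.5 bp among the 30 lost in LaminB KD. It was 1412 bp among the 823 X regions called in both mock libraries and 1965.5 bp among the 446 called in all 6 lists. These 446 were 46.3% of the X regions, beside 47.1% on the autosomes. A further 216 X regions (22.4%) were called everywhere but in AGO2 KD 1, beside 19.4% on the autosomes, and 28 (2.90%) in both mock libraries only, beside 4.28%. No mock library held 29 X regions (3.01%), beside 2.74% on the autosomes.

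Retention asked which regions of mock were found again in a knockdown. Of the 823 X regions called in both mock libraries, 54.7% were retained in AGO2 KD 1, 83.1% in AGO2 KD 2, 93.7% in LaminB KD 1 and 92.8% in LaminB KD 2. Of the 2718 autosomal regions, 55.3, 80.2, 90.3 and 90.7% were retained. The X lay above each of the 3 arms in AGO2 KD 2 and both LaminB KD libraries and within them in AGO2 KD 1. X minus autosomes was −0.62, 2.90, 3.43 and 2.1 percentage points, with a mean of 1.95 ± 1.80 (SD, n = 4). The difference did not pass the test (exact sign-flip permutation test, two-sided p = 0.25, smallest possible 0.125). The mean was 0.80 without mock 1 and 2.88 without mock 2, and its sign turned with lists of equal size (−0.91) and with 50% of a region called (−0.54).

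The mock replicates gave a measure of how far lists of the same group disagree. Mock 2 held 95.3% of the X regions of mock 1 and mock 1 held 92.1% of those of mock 2. Against mock 1 alone, LaminB KD 1 and LaminB KD 2 retained 89.6 and 89.1% of X regions, and AGO2 KD 1 and AGO2 KD 2 retained 52.2 and 79.4%. Both knockdowns therefore lost more X regions of mock 1 than mock 2 did.

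Retention on the X rose with the length called in mock. In AGO2 KD 1 it was 31.8% for X regions under 500 bp, 46.2% from 500 to 1000 bp, 57.8% from 1000 to 2000 bp and 75.5% from 2000 bp on. AGO2 KD 2 retained 64.6, 80.5, 87.9 and 95.3% in the same classes. LaminB KD 1 retained 82.8, 92.9, 98.0 and 99.2%. On the autosomes AGO2 KD 1 retained 35.2, 49.4, 55.1 and 77.7% in these classes, so the rise was not particular to the X. With the autosomal regions weighted to the X lengths, X minus autosomes was −1.52, 2.21, 2.96 and 1.67 percentage points in AGO2 KD 1, AGO2 KD 2, LaminB KD 1 and LaminB KD 2, the signs that the unweighted values had. Along the X, cut into 4 stretches of equal length, retention ran from 52.1 to 59.6% in AGO2 KD 1 and from 80.1 to 85.8% in AGO2 KD 2, with the highest value in the last stretch, which holds the fewest regions (168). It ran from 91.0 to 94.8% in LaminB KD 1 and from 91.5 to 93.8% in LaminB KD 2.

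The length called in each region was examined as well, summed over the pieces where a library had split it. The median over X regions present was 1076 and 1047.5 bp in mock, 426 and 702 bp in AGO2 KD, and 978 and 984 bp in LaminB KD. On the autosomes it was 992 and 972 bp in mock, 426 and 744 bp in AGO2 KD, and 916 and 923 bp in LaminB KD. The X median was the longer one in 4 libraries, equal in AGO2 KD 1 and shorter in AGO2 KD 2. The mean log2 ratio of X to autosomes was 0.05 ± 0.08 (SD, n = 6; exact sign-flip permutation test, two-sided p = 0.125). Set against 3R alone the mean ratio was −0.04, so the X did not differ from each arm in the same direction.

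**Figure D2:**
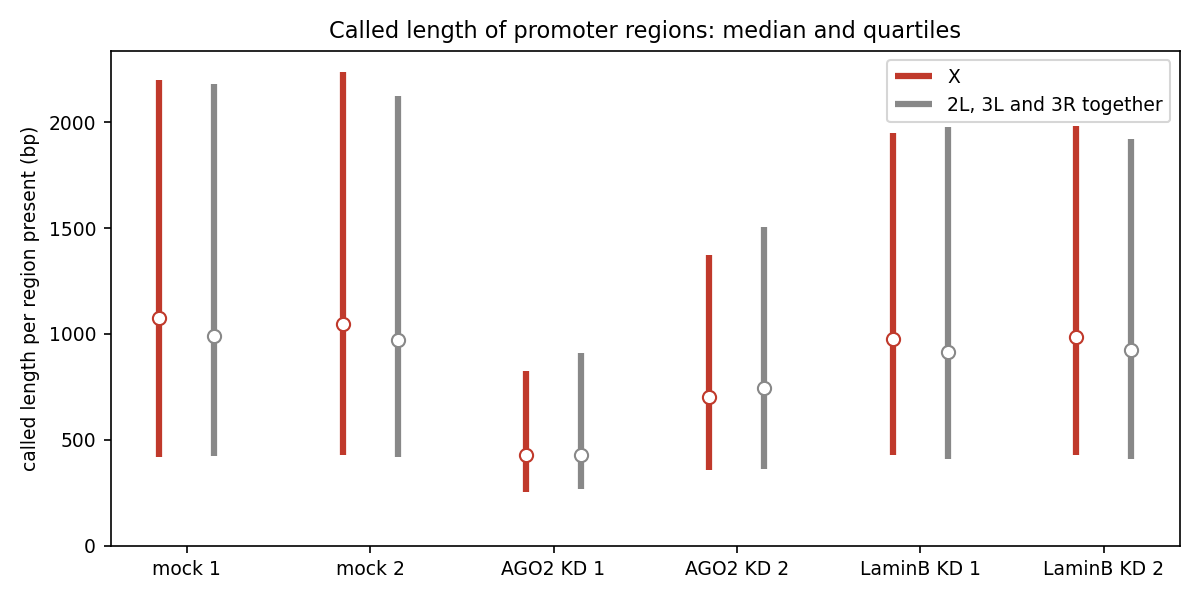
Called length in bp per promoter region present, for the X (red) and for 2L, 3L and 3R together (grey), with the median (open circle) and the quartiles (bar) in each library. The X median lies above 1000 bp in both mock libraries and at 426 and 702 bp in AGO2 KD, with wide quartiles on both chromosome sets.

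Averaged over all 964 X regions, the called length was 1328 ± 34.1 bp in mock, 528.3 ± 312.7 bp in AGO2 KD and 1112 ± 18.3 bp in LaminB KD (SD, n = 2 each). The log2 ratio was −1.33 between AGO2 KD and mock (pooled SD 0.64), −0.26 between LaminB KD and mock (pooled SD 0.03) and −1.07 between AGO2 KD and LaminB KD (pooled SD 0.64). The groups did not overlap in any of these comparisons (two-sided exact permutation p = 0.333, again the lower bound). Without AGO2 KD 1 the ratio to mock was −0.83 and without AGO2 KD 2 it was −2.11, and the ratio to LaminB KD was −0.57 and −1.86. The log2 ratio of X to autosomes in median length moved by −0.15 from mock to AGO2 KD (pooled SD 0.04), by −0.02 from mock to LaminB KD (pooled SD 0.005) and by −0.14 from LaminB KD to AGO2 KD (pooled SD 0.04), each with an exact permutation p of 0.333.

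Single X regions moved mostly the same way. Of the 823 called in both mock libraries, 689 (83.7%) were shorter in both AGO2 KD libraries than in both mock libraries, beside 86.9% of the 6586 merged regions tested, and 0 were longer, beside 0.106%. In LaminB KD 347 (42.2%) were shorter, beside 51.7%, and 30 (3.65%) were longer, beside 3.83%. Of the 2718 autosomal promoter regions, 85.4% were shorter and 0.0736% longer after AGO2 depletion, and 48.3% were shorter and 4.64% longer after LaminB depletion. The median X region kept 38.5% of its mock length in AGO2 KD and 90.1% in LaminB KD, beside 40.1 and 88.7% on the autosomes.

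Called bases were then placed around the nearest TSS for the 593 X regions with start sites on a single strand. Regions were kept for touching a TSS window and placed on their nearest TSS, so a peak near it follows partly from the selection. In each library the profile peaked in the 100-bp bin centred 50 bp after the TSS, where mock called 60.5 and 60.2% of X regions, AGO2 KD 27.7 and 47.2%, and LaminB KD 53.8 and 55.5%. The autosomal profile peaked in the same bin, at 62.5 and 60.3% for mock, 31.1 and 47.3% for AGO2 KD, and 54.3 and 53.0% for LaminB KD. The profiles fell steeply upstream of the TSS and more slowly into the gene.

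**Figure D3:**
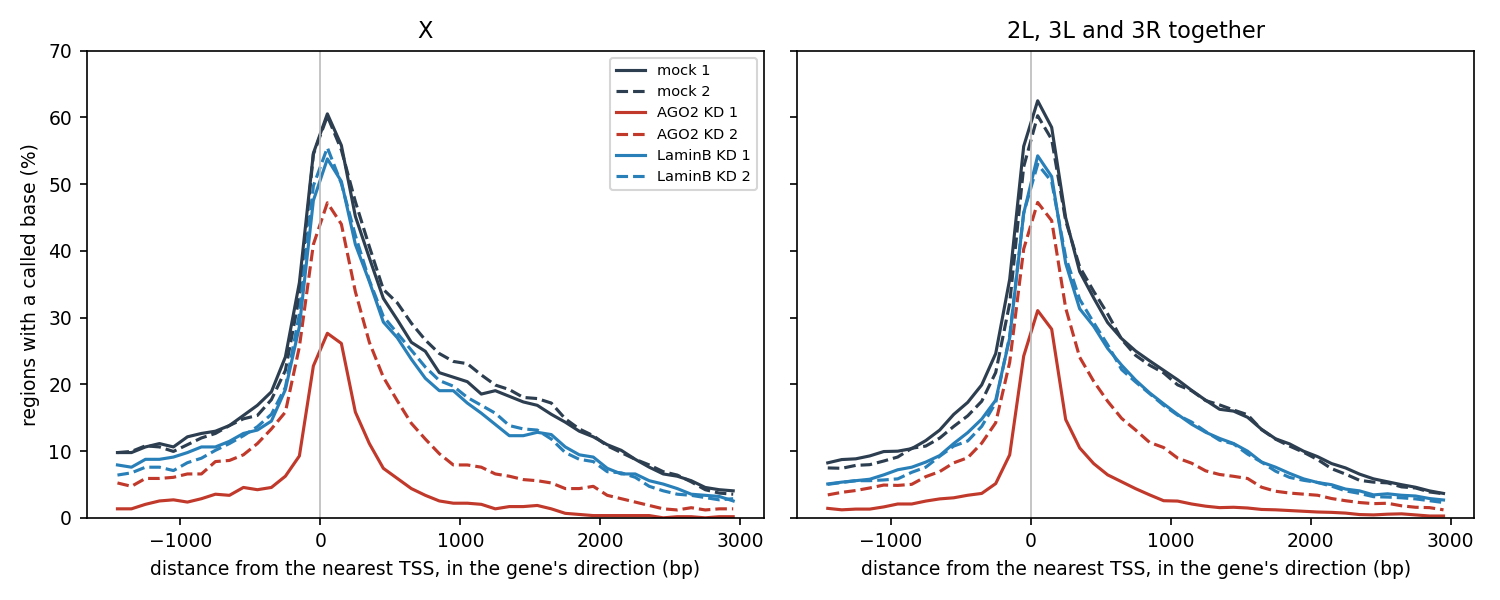
Percentage of promoter regions with start sites on one strand that had a called base in each 100-bp bin, by distance in bp from the nearest TSS in the direction of the gene, for 593 X regions (left) and for 2L, 3L and 3R together (right). Colour gives the group, and solid and dashed lines give replicates 1 and 2. Each line peaks 50 bp after the TSS, on the X at 60.5% in mock 1 and 27.7% in AGO2 KD 1.

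Regions with start sites on both strands were wider and were retained more often. On the X their median merged width was 2068 bp, against 739 bp for the 593 regions on a single strand. AGO2 KD retained 62.1 and 88.7% of them and LaminB KD 95.4 and 96.2%, against 49.3 and 79% and 92.5 and 90.4% of those on a single strand. The same order was seen on the autosomes, where regions on both strands were retained to 62.7 and 86.4% in AGO2 KD and those on a single strand to 49.1 and 75%.

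Fold enrichment, the pileup of IP reads divided by the background that MACS2 derives from input, was lower on the X than on the autosomes in each library, by a small amount. This measure was added after the data were seen. The median over X regions present was 2.61 and 2.66 for mock, 3.53 and 3.09 for AGO2 KD, and 2.87 and 2.78 for LaminB KD. On the autosomes it was 2.67 and 2.72, 3.69 and 3.18, and 2.94 and 2.81 for the same groups. The X lay below each of the 3 arms in all 6 libraries. The gap to the nearest arm was smallest in LaminB KD 2, where the median was 2.7799 on the X and 2.7808 on 3R. The mean difference of X minus autosomes was −0.08 ± 0.04 (SD, n = 6; exact sign-flip permutation test, two-sided p = 0.0312, the lower bound for 6 libraries). After Benjamini-Hochberg adjustment over the 4 measures compared in this way the p was 0.125 from the same exact test, so the difference did not pass a threshold of 0.05. The median fold was highest in AGO2 KD 1, the library with the lowest presence, on both the X and the autosomes.

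**Figure D4:**
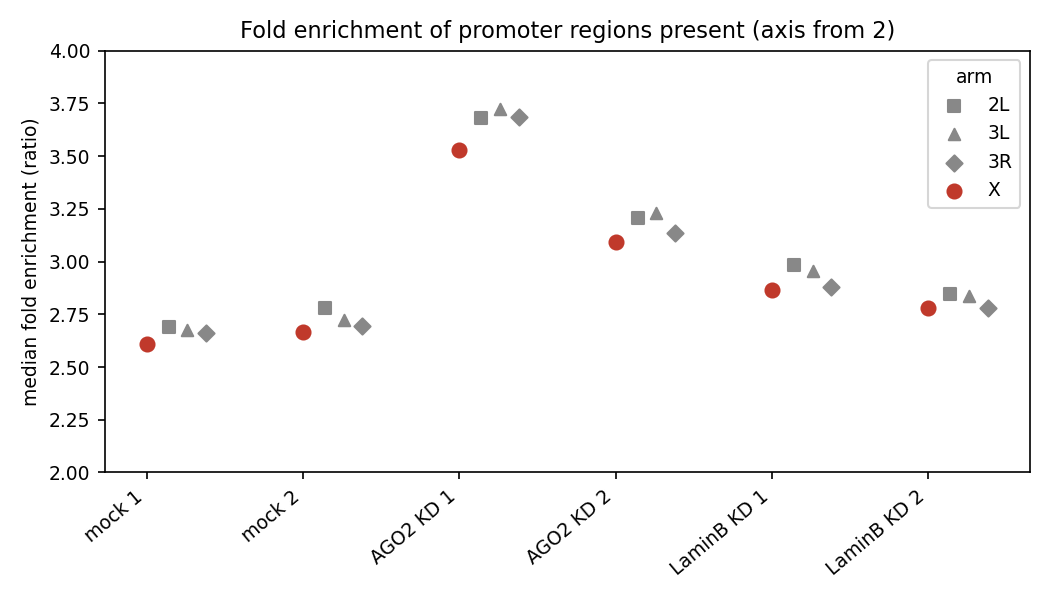
Median fold enrichment (a ratio, axis from 2) of promoter regions present in each library, for the X (red circles) and for 2L, 3L and 3R (grey squares, triangles and diamonds, set to the right of each X point). The X point is the lowest of the 4 in each library, at 2.61 in mock 1 and 3.53 in AGO2 KD 1.

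The DNA around the X start sites was compared with that of the autosomes, without a test, in windows of 300 bases from 250 before the nearest TSS, on both strands. The median GC content was 40.7% at X regions, 38.3% on 2L, 38% on 3L and 39.3% on 3R. Over all protein-coding gene starts it was 39% on the X and 37.3% on the 3 arms. The DRE was found in 139 of 964 X windows (14.4%), beside 10.5, 8.78 and 10.9% on 2L, 3L and 3R, and in 13.6% of all protein-coding gene starts of the X, beside 8.46% of those on the 3 arms. The CA repeat was found in 101 X windows (10.5%), beside 5.70, 5.50 and 5.70%, and in 5.24% of all gene starts of the X, beside 3.70%. Both motifs were therefore more frequent at X regions than on any of the 3 arms. The CA repeat was also more frequent at X regions than at X gene starts at large, whereas the DRE was about as frequent.

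The TATA box, searched as TATAAA anywhere in the window, was found at 33.7% of X regions, beside 41.8, 40.3 and 38.8% on 2L, 3L and 3R. The GA repeat was found at 17.0% of X regions, beside 16.9, 19.2 and 17.3%, and its longer form GAGAGAGA at 5.39%, beside 4.35, 5.41 and 5.27%. GA repeats are the sites of GAGA factor. Motif 1, searched as its core GGTCACAC, was found at 9.13%, beside 9.33, 9.46 and 9.52%. The E-box-like element was found at 19.1%, beside 23.0, 21.5 and 21.3%. The GA repeats and motif 1 thus occurred on the X at about the shares of the autosomal arms, and the TATA box and the E-box-like element at lower shares. All protein-coding gene starts had the same order for these 2 motifs. The TATA box was found at 40.3% of those on the X, beside 47.4% on the 3 arms, and the E-box-like element at 16.0%, beside 18.0%.

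**Figure D5:**
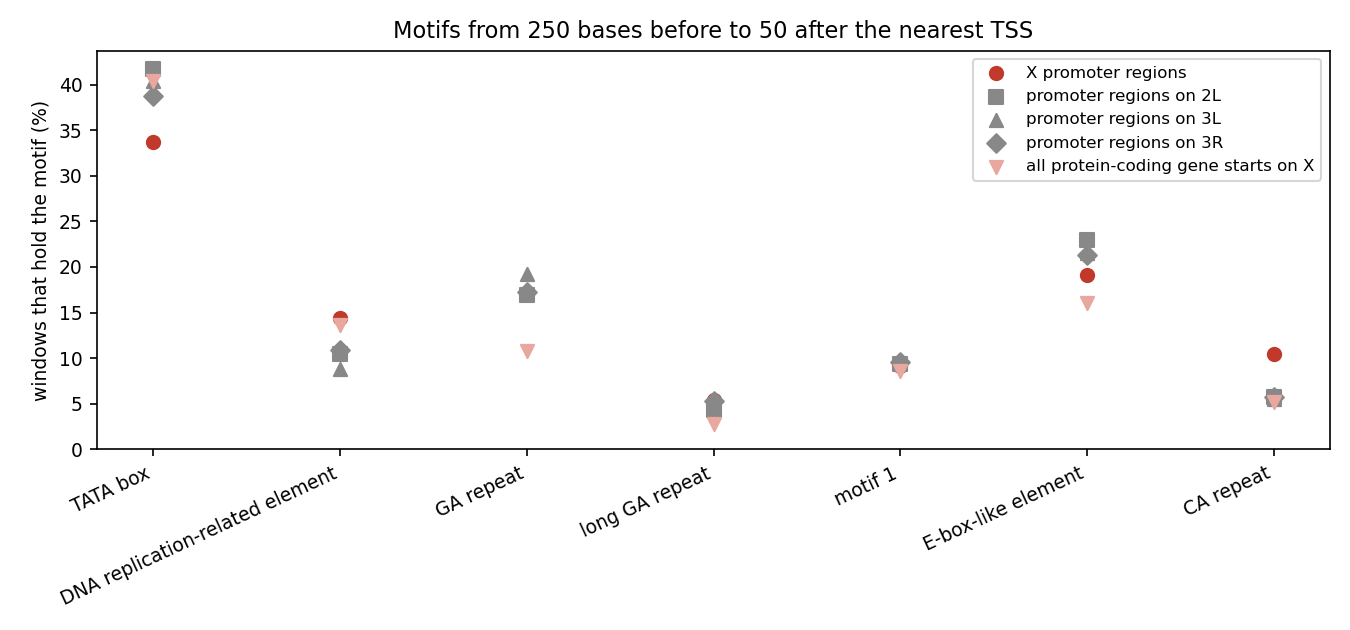
Percentage of windows of 300 bases around the nearest TSS that held each of 7 motifs on either strand, for X promoter regions (red circles), for promoter regions on 2L, 3L and 3R (grey squares, triangles and diamonds) and for all protein-coding gene starts of the X (pale triangles). The X regions stand above the 3 arms for the DRE (14.4%) and the CA repeat (10.5%) and below them for the TATA box (33.7%) and the E-box-like element (19.1%).

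Some neighbouring regions shared a start site, and the 964 X regions had 905 different nearest TSSs. Over these, the DRE was found in 15.0% and the CA repeat in 9.94%, beside 10.3 and 5.69% over the 3006 different start sites of the autosomal regions. Within the X, motif 1 was found at 61 of the 446 regions called in all 6 lists (13.7%) and at 5 of the 135 lost in AGO2 KD (3.70%). The DRE was found at 16.8% of the former and 11.1% of the latter, and the CA repeat at 11.7 and 5.93%. The GA repeat was found at 18.4 and 14.8%, its longer form at 6.05 and 1.48%, and the E-box-like element at 18.2 and 15.6%. The TATA box had the opposite order, at 32.5 and 40.7%. The nearest TSS can lie outside a region, and no autosomal counterpart of these shares is given. These letters describe the windows, and binding of any factor was not measured.

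Among single X regions, the most constant called length in the widest 25% of those called everywhere (3219 bp or wider) was found at *Ran*, *RpS6* and *e(r)*, whose promoters are printed above. The region at *Ran*, which encodes the GTPase of nuclear transport, spans chrX:11143897-11148678 and overlaps exons of *Ran* and *CG15201*. Its called length was 4782 and 4777 bp in mock, 4550 and 4676 bp in AGO2 KD, and 4752 and 4699 bp in LaminB KD. The knockdown values were all below both mock values, and the lowest was that of AGO2 KD 1.

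The region at *RpS6*, a protein of the small ribosomal subunit, spans chrX:7899613-7903597 and overlaps exons of *RpS6*, *bys*, *CR33222* and *snoRNA:Or-aca2*. It measured 3949 and 3985 bp in mock, 3318 and 3882 bp in AGO2 KD, and 3896 and 3907 bp in LaminB KD. The region at *e(r)*, the enhancer of rudimentary, spans chrX:8901574-8906336 and overlaps exons of *e(r)* and *Rbm13*. It measured 4749 and 4744 bp in mock, 3813 and 4683 bp in AGO2 KD, and 4677 and 4704 bp in LaminB KD. In both regions AGO2 KD 1 was the shortest of the 6 libraries. Fold enrichment in AGO2 KD 1 was 3.91 at *Ran*, 3.92 at *RpS6* and 4.43 at *e(r)*, against 4.33, 3.68 and 4.17 in mock 1, so the order of the libraries differed between the 3 regions.

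The regions with a DRE differed from one another. The region at *et*, which encodes a relative of the JAK/STAT receptor, also overlaps exons of the receptor gene *dome*, and had 1028 and 1285 called bases for mock, 223 and 316 for AGO2 KD, and 525 and 1069 for LaminB KD. That at *sov*, small ovary, was short and stable, with 499 and 562 bp in mock, 421 and 522 bp in AGO2 KD, and 535 and 532 bp in LaminB KD. That at *RpL37-1*, a protein of the large ribosomal subunit, had 2677 and 2313 bp in mock, 1078 and 1345 bp in AGO2 KD, and 2157 and 1754 bp in LaminB KD. AGO2 KD lay below mock at *et* and *RpL37-1* in both libraries and overlapped mock at *sov*.

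Of the CA-repeat regions, *Bcat* had 1214 and 1094 bp in mock, 300 and 1133 bp in AGO2 KD, and 1058 and 1053 bp in LaminB KD. The region at *CG5004* had 783 and 834 bp in mock, 330 and 820 bp in AGO2 KD, and 773 and 403 bp in LaminB KD. That at *dlg1*, a scaffold of cell junctions, had 963 and 936 bp in mock, 481 and 758 bp in AGO2 KD, and 802 and 917 bp in LaminB KD. AGO2 KD 1 was the shortest library at each of them, and at *Bcat* and *CG5004* AGO2 KD 2 was as long as a mock library or longer.

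The regions with the largest fall in covered share among those lost in AGO2 KD lay mostly at non-coding genes. The region at *asRNA:CR44961* (chrX:15316748-15317821, 146 bp from its TSS) overlaps exons of that antisense RNA and of *gce*, a receptor gene for juvenile hormone. It had 1069 and 1061 called bases in mock and none in the other 4 libraries. The region at *CR17438* (chrX:9259321-9259727, 795 bp from the TSS) had 399 and 406 bp in mock and none elsewhere. The region at *asRNA:CR44053* (chrX:16808847-16809411), with the TSS inside it, had 565 and 552 bp in mock, 482 and 243 bp in LaminB KD and none in AGO2 KD. Fold enrichment in mock was 1.90 and 1.92 at *asRNA:CR44961*, 2.09 and 2.09 at *CR17438* and 3.11 and 3.29 at *asRNA:CR44053*, so the first 2 lay below the X median and the third above it.

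The same first 2 regions led those lost in LaminB KD, a comparison that uses the same mock libraries. The third was at *CG8924* (chrX:15941120-15941562, 43 bp from the TSS, in an exon), with 443 and 412 bp in mock and none in any knockdown library. Of the regions gained in LaminB KD, that near *lncRNA:CR45627* (chrX:18495570-18495750) overlaps an exon of *Pgant7*, a glycosyltransferase gene, and had 177 bp in both LaminB KD libraries. The region near *asRNA:CR45000* (chrX:15927660-15928109) overlaps exons of *Lcch3*, a GABA receptor subunit, and *Ranbp16*, and had 450 and 342 bp. The region at *pkm* (chrX:11583345-11583576) lies in an exon of *pkm* and in the body of *nod*, a kinesin gene, and had 232 and 176 bp. None of these 3 was called in mock or AGO2 KD. The other gained regions lay at *SK*, *ogre* and *ben*, and those at *SK* and *ben* were also called in AGO2 KD 2, over 259 and 558 bp.

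Known X-linked genes were then read by function. Here a gene counted as having a member when one touched its promoter window, and its value is the called length of that region, which may be shared with a neighbour. Where several regions touched the promoter windows of a gene, a single region was read, so absence means absence of that region. Of 9 genes of sex determination and dosage compensation, *Sxl* and *snf* had a member, and *mof* and *lncRNA:roX2* had only a region beyond the width limit. The region read at *lncRNA:roX2* (chrX:11573760-11578814) lies upstream of the gene and does not overlap it. The genes *sisA*, *run*, *upd1*, *sc* and *lncRNA:roX1* had no region. At *Sxl*, the switch gene of female development, the region measured 3015 and 2964 bp in mock, 2053 and 2892 bp in AGO2 KD, and 2983 and 2950 bp in LaminB KD. At *snf*, a spliceosomal protein that also acts in *Sxl* splicing, it measured 2625 and 3434 bp in mock, 843 and 1727 bp in AGO2 KD, and 2696 and 2672 bp in LaminB KD. Both genes were called in all 6 libraries, with AGO2 KD below mock in both of its libraries. The *snf* region also holds the promoter of *Cdk7*, the kinase of Pol II serine 5.

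Of 9 annotated genes of transcription and chromatin, 5 had a member and 4 only a wider region, among them *Polr2A*, the largest Pol II subunit. Of the 5, 2 were called in all 6 libraries, *Cdk7* and *nej*. The region at *nej*, the acetyltransferase CBP, measured 2975 and 3120 bp in mock, 1219 and 2853 bp in AGO2 KD, and 2894 and 2908 bp in LaminB KD. *trr*, a histone methyltransferase, and *SMC3*, a cohesin subunit, were called in every library but AGO2 KD 1. *Hira*, a chaperone of histone H3.3, was called over 325 and 436 bp in mock, over 310 bp in LaminB KD 2 and nowhere else. The median member of this list kept 39.2% of its mock length in AGO2 KD and 88.6% in LaminB KD, beside 38.5 and 90.1% for the 823 X regions called in both mock libraries.

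Of 8 signalling genes, 6 had a member and *dsh* and *Dsor1* only a wider region. The region at *N*, the Notch receptor, measured 1336 and 1187 bp in mock, 556 and 702 bp in AGO2 KD, and 1182 and 1202 bp in LaminB KD. At *arm*, the β-catenin of Wnt signalling, it measured 1275 and 1219 bp, 783 and 979 bp, and 1230 and 1000 bp. At *sgg*, the kinase that marks *arm* protein for decay, it measured 2870 and 2948 bp, 1414 and 2903 bp, and 2653 and 2964 bp. AGO2 KD lay below mock at *N* and *arm* and overlapped it at *sgg*. The regions read at *csw*, a phosphatase of receptor tyrosine kinase signalling, and *hep*, a JNK kinase, were absent from AGO2 KD 1 and present in the other 5 libraries. A further region at *csw* (chrX:2102314-2102695) was called in all 6 libraries, over 173 bp in AGO2 KD 1. The *hep* region (chrX:13091094-13092142) lies upstream of the gene. The median member kept 47.6% of its mock length in AGO2 KD and 89.0% in LaminB KD.

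Cytoskeleton and membrane traffic had 5 of 6 genes with a member. *Moe*, which links actin to the membrane, had 4905 and 4914 bp in mock, 2459 and 4854 bp in AGO2 KD, and 4847 and 4928 bp in LaminB KD. The region read at *Chc*, clathrin heavy chain, lies upstream of the gene (chrX:15836527-15837231). It was called in mock 2 alone, over 705 bp. The median member kept 53.0% in AGO2 KD and 85.2% in LaminB KD. Of 4 genes of growth and metabolism, *CycD* and *Zw* had a member and *Myc* and *Pgd* a wider region, with medians of 50.3 and 83.2%. *Zw*, which encodes glucose-6-phosphate dehydrogenase, had 4667 and 3831 bp in mock, 520 and 2972 bp in AGO2 KD, and 2954 and 3227 bp in LaminB KD.

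All 14 cytosolic ribosomal protein genes of the X had a region, 6 of them a member and 8 only a wider one. The 6, *RpL17*, *RpL37-1*, *RpS10b*, *RpS15Aa*, *RpS19a* and *RpS6*, were called in every library, and the median kept 75.5% of its mock length in AGO2 KD and 94.4% in LaminB KD. At *RpL17* the region measured 3402 and 3338 bp in mock, 2659 and 3409 bp in AGO2 KD, and 3408 and 3480 bp in LaminB KD. At *RpS15Aa*, the second widest member of all at 4981 bp, it measured 4981 and 3662 bp in mock, 1186 and 2477 bp in AGO2 KD, and 3226 and 3228 bp in LaminB KD. AGO2 KD thus overlapped mock at *RpL17* and lay below it at *RpS15Aa*.

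Of 12 neural and patterning genes, 5 had a member and 7 had no region, among them the proneural genes *ac*, *l(1)sc* and *ase*. *elav*, a neuronal RNA-binding protein, had 809 and 871 bp in mock, 730 and 919 bp in AGO2 KD, and 848 and 894 bp in LaminB KD. *w*, the eye pigment transporter, was called in mock 1 alone, over 587 bp. The median member kept 32.8% in AGO2 KD and 88.2% in LaminB KD. Both values are those of the region read at *Appl* (chrX:527498-529921), which lies upstream of *Appl* and over the TSS of *CG4293*. The hemocyte origin of the line was checked with markers on the X and on other chromosomes. Of 10 hemocyte genes, 9 had a promoter region and *NimC1* had none, and 7 were called in all 6 libraries, among them *Col4a1* and *vkg*, which share a region. Over all protein-coding genes, 49.5% on the X, 43.5% on 2L, 46.5% on 3L and 44.7% on 3R had a promoter region. Of the regions themselves, 46.3% on the X and 47.1% on the autosomes were called in all 6 libraries. The X-linked member *lz*, a factor of crystal cells, was called in mock 2 alone, over 156 bp. Of 10 annotated markers of muscle, fat body, neurons and germ line, 2 had a promoter region (*elav* and *vas*), 2 only a wider one (*nSyb* and *bam*) and 6 none. The region at *elav* covers its TSS. The regions read at *vas*, *nSyb* and *bam* lie upstream of the gene and do not overlap it, as do those at the hemocyte genes *vkg* and *lz*.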

How the data were processed

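Pol II S2 ChIP-seq libraries of Kc167 cells (6 IPs, with 6 inputs that entered only through peak calling) were used as lists of called regions. Per the labels, the authors used cutadapt 1.10, Bowtie2, Picard 2.11.0 and MACS2 2.1.1.20160309 with dm6. Broad regions were called per replicate, and which input entered each call is not stated. The deposited columns are a score, a fold enrichment (ratio), −log10 p and −log10 q, averaged over a region. The smallest −log10 q was 1.01. Read depth is unknown, so no counting interval can be given.

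Regions were merged and measured with Python 3.11.15, pandas 2.3.3 and numpy 2.4.6 on Ensembl 115 gene models (BDGP 6.54). The sequence was that of Release 6 from RefSeq. The scripts were tested on simulated data. Fold enrichment of a region was the highest of its pieces in a library. Groups of 2 libraries were compared by an exact permutation test, and the X with the autosomes by an exact sign-flip permutation test over libraries. Regions were named by rule: the 3 lost and the 3 gained with the largest change in covered share, and, in the widest 25% of those called in 6 lists, the 3 with the lowest coefficient of variation of called length. Gene lists were read in full. Promoters printed for the DRE and the CA repeat, *CG14196* and the other gained regions were chosen after their values were seen. Windows with over 30 bases of UTR were not printed. The genes *e(y)1* and *nos* were not matched. Members, lists and motifs were chosen with earlier results of these data known. Alternatives changed the window, width limit, threshold, overlap, list size, merging, comparison arm and libraries used.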

Additional observations from a re-analysis of the deposited data

How the results depend on the processing

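The differences between groups on the X kept their direction under the 13 alternatives run for presence and the 12 run for called length. Those between the X and the autosomes reversed under some alternatives. X minus autosomes kept its direction under 15 and reversed under 2 for presence and for retention, and under 13 and 3 for length. Its change in presence from mock to AGO2 KD kept direction under 12 and reversed under 4. With each list cut to the same number of regions, X minus autosomes was −2.46 percentage points in presence, −0.91 in retention and −0.0426 in log2 length, and the change of the length ratio between LaminB KD and AGO2 KD was 0.00148. The same setting gave 43 lost and 11 gained X regions for AGO2 KD, 12 and 10 for LaminB KD, and 36 and 10 between them. Lost and gained regions under the alternatives were counted for the X alone, so no share over other regions stands beside them. With 50% of a region called, X minus autosomes was −0.65 percentage points in presence and −0.54 in retention. The change of X minus autosomes in presence from mock to AGO2 KD was then −1.15. This setting gave 309 regions lost in AGO2 KD, 60 in LaminB KD and 190 between them, and 0 gained between them. With −log10 q of at least 2, the log2 length ratio of X to autosomes was −0.0118. The change of X minus autosomes in presence from mock to AGO2 KD was −0.14 in that setting. Against 3R alone the length ratio was −0.0401. The change of the length ratio from mock to LaminB KD was 0.00376 with a window of 500 bp, 0.0176 with protein-coding TSSs, 0.0390 under 3000 bp and 0.0388 against 3L. The window of 500 bp gave 17 lost and 2 gained regions in LaminB KD, and merging mock lists alone gave 0 gained. The cause was not tested.

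With single libraries left out, the added fold difference stayed between −0.088 and −0.062 (exact sign-flip permutation p = 0.0625, the smallest 5 libraries allow), and was −0.16 to −0.05 under the other settings, which like the measure itself were added after the data were seen. Lost regions ranged from 139 to 373 for AGO2 KD, 52 to 75 for LaminB KD and 89 to 306 between them, and gained regions from 0 to 9, 8 to 15 and 1 to 9. Leaving a library out loosens the rule, so these counts cannot fall below those from all libraries. The change of X minus autosomes in presence ranged from −0.58 to 3.10 from mock to AGO2 KD. From LaminB KD to AGO2 KD it ranged from −2.78 to 0.26.

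Replicates share only a number: the correlation of replicate differences over X regions was 0.03 for AGO2 KD with mock, 0.11 for LaminB KD with mock and −0.05 for AGO2 KD with LaminB KD. The replicate block gave presence differences of −31.4, −7.83 and −23.5 percentage points and log2 length ratios of −1.47, −0.26 and −1.21, with no call changed (exact permutation p = 0.5 at the least).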
